A study of Mus musculus with 15 samples.

Results

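The tripartite motif (TRIM) and F-box genes code for the part of a ubiquitin ligase that chooses the protein to be tagged. They were taken as every gene of the deposited expression table whose symbol starts with Trim, Fbxo, Fbxl or Fbxw followed by a digit, without Trim63 and Fbxo32, the well known ligases of muscle atrophy. This gave 114 of 16042 genes, of which 55 are Trim genes and 59 are F-box genes (18 Fbxl, 31 Fbxo and 10 Fbxw). A mean of at least 1 RPKM over the 15 mice was needed for testing, and 78 genes reached it, 32 Trim and 46 F-box. RPKM scales the reads of a gene to its length and to the mapped reads of the library, so levels can be compared between genes.

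RNA with a poly(A) tail was sequenced from the hearts of 15 mice aged 20 to 22 weeks, after the atria and a small piece of the apex had been cut away. All mice carried an rtTA transactivator under the alpha-MHC promoter, which is active in cardiomyocytes, and all were fed doxycycline at 2 g/kg after 2 to 3 hours without food. The 3 control mice (strain MHCrtTA) held no other transgene and received doxycycline for 72 hours. The other 12 mice (strain MHCrtTA/TRECUGBP1) also held a tetracycline-inducible gene for Flag-tagged human Celf1 in its LYLQ isoform, and 3 mice each were taken after 12 hours, 24 hours, 72 hours and 7 days of doxycycline. Only the 72 hour comparison is matched to the controls for time on doxycycline, and all comparisons with control share the same 3 control mice. Whether mice of a group were littermates was not stated.

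A TRIM protein carries a RING domain, B-boxes and a coiled coil in 1 chain, and most members hand ubiquitin from an E2 enzyme straight to the target. An F-box protein does not work alone: its F-box binds Skp1, and through Skp1 the cullin Cul1 and the RING protein Rbx1, while the rest of the chain (WD40 repeats in Fbxw, leucine-rich repeats in Fbxl, other folds in Fbxo) holds the target. In striated muscle several of these proteins sit on the sarcomere or the plasma membrane and shape protein turnover, insulin signalling and membrane repair. Celf1 is an RNA-binding protein that acts on splicing, on translation and, through GU-rich elements in 3' UTRs, on the decay of messages.

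Estimated depth was 14.5 to 51.4 M reads per column of the table, with a median of 24.2 M reads. The row named Cugbp1, the older symbol of Celf1, stood at 33.8, 36.1 and 33.3 RPKM in control and at 158.9 to 422.8 RPKM at 12, 24 and 72 hours. It was back at 29.5, 30.9 and 37.9 RPKM at 7 days, near the control values. The transgene is human and the row is that of the mouse gene, so how far it counts reads of the transgene is not known. Values are listed throughout in the order A3250, A3259, A3280 for control, A3258, A3252, A3276 for 12 hours, A3254, A3277, A3262 for 24 hours, A3278, A3281, A3264 for 72 hours and A3345, A3283, A3269 for 7 days. Each column of the table also bears a code (9 in all), and no label explains it. The controls share their code with the 72 hour mouse A3278 and with no other mouse. Direct comparisons of control with 12 hours or 7 days thus differ in code as well as in group. Where a fit below holds the code as a term, each comparison with control is linked through A3278 alone. The codes of the 24 hour mice occur in no other group, so at 24 hours code and group cannot be told apart. The 72 hour group also split in the atrial markers, which summed to 67 RPKM in A3278 and to 12.1 and 13.9 RPKM in the other mice. Their sum was 65.3 to 78.7 RPKM in control, 61.8 to 92.7 at 12 hours and 64.3 to 149 at 24 hours. A3278 lay within these ranges, and the other 72 hour mice lay far below them.

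Differences are given as log2(RPKM + 1) of a time minus that of control, each with its standard error from 1 limma fit to all 15 mice and with a p adjusted by Benjamini and Hochberg over 10868 genes. A gene is said to rise, to fall or to be called where that p is under 0.05. Differences of genes with low RPKM are understated on this scale. At 12 hours 21 of the 78 tested genes were called, 26.9% against 13.2% of all genes. All 21 fell (12.7% of all genes fell), and 0 rose (0.524% of all genes), also at an unadjusted p under 0.05, where 2.20% of all genes rose. At 24 hours 10 were called, 12.8% against 16.0% of all genes, with 1 rise (5.38%) and 9 falls (10.6%). At 72 hours 9 were called, 11.5% against 11.6%, with 3 rises (6.39%) and 6 falls (5.22%). At 7 days 41 were called, 52.6% against 54.8%, with 16 rises (26.7%) and 25 falls (28.2%). Outside 12 hours, then, the share of called genes was close to that of all tested genes or below it. A test for any difference among the 5 groups called 55 of the 78, 70.5% against 71.3% of all genes.

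**Figure D1:**
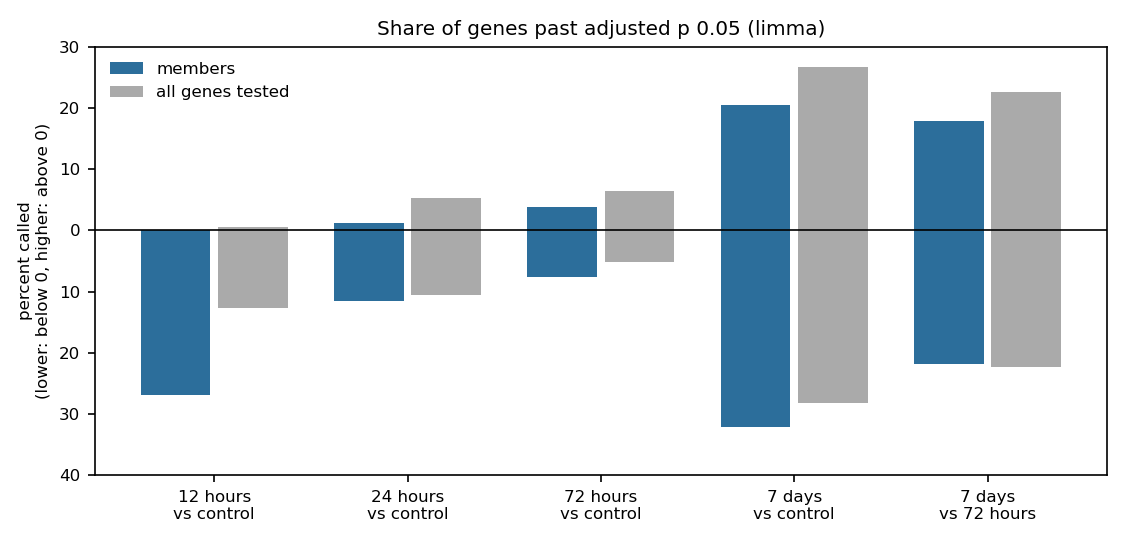
Share of tested genes past an adjusted p of 0.05 in each comparison (x axis; y axis in percent, rises above 0 and falls below 0), for the 78 tested Trim and F-box genes (blue) and all 10868 genes (grey). The blue bar of falls is longer than the grey one at 12 hours (26.9% against 12.7%), and at 7 days rises make up 20.5% of these genes and 26.7% of all genes.

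The median difference of the 78 genes was -0.45 at 12 hours, where that of all genes was below 0 as well, at -0.30. At 24 hours the medians were -0.24 and -0.19, and at 7 days -0.16 and -0.03. At 72 hours the median was -0.02 for these genes and -0.10 for all, and the former became 0.04 with median-of-ratios scaling and 0.01 with a GC correction. Over the 4 times 27 of the 78 genes were never called, 29 were called once, 16 at 2 times, 4 at 3 times (Fbxo21, Fbxo40, Fbxw9 and Trim65) and 2 at all 4 (Fbxw4 and Trim35). Of the 51 genes called at least once, 32 only fell, 16 only rose, and Fbxw7, Fbxw9 and Trim47 rose at one time and fell at another. These are 62.7%, 31.4% and 5.9% of the 51, and of the 7175 genes of the whole table called at least once 53.7% only fell, 42.8% only rose and 3.4% did both.

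**Figure D2:**
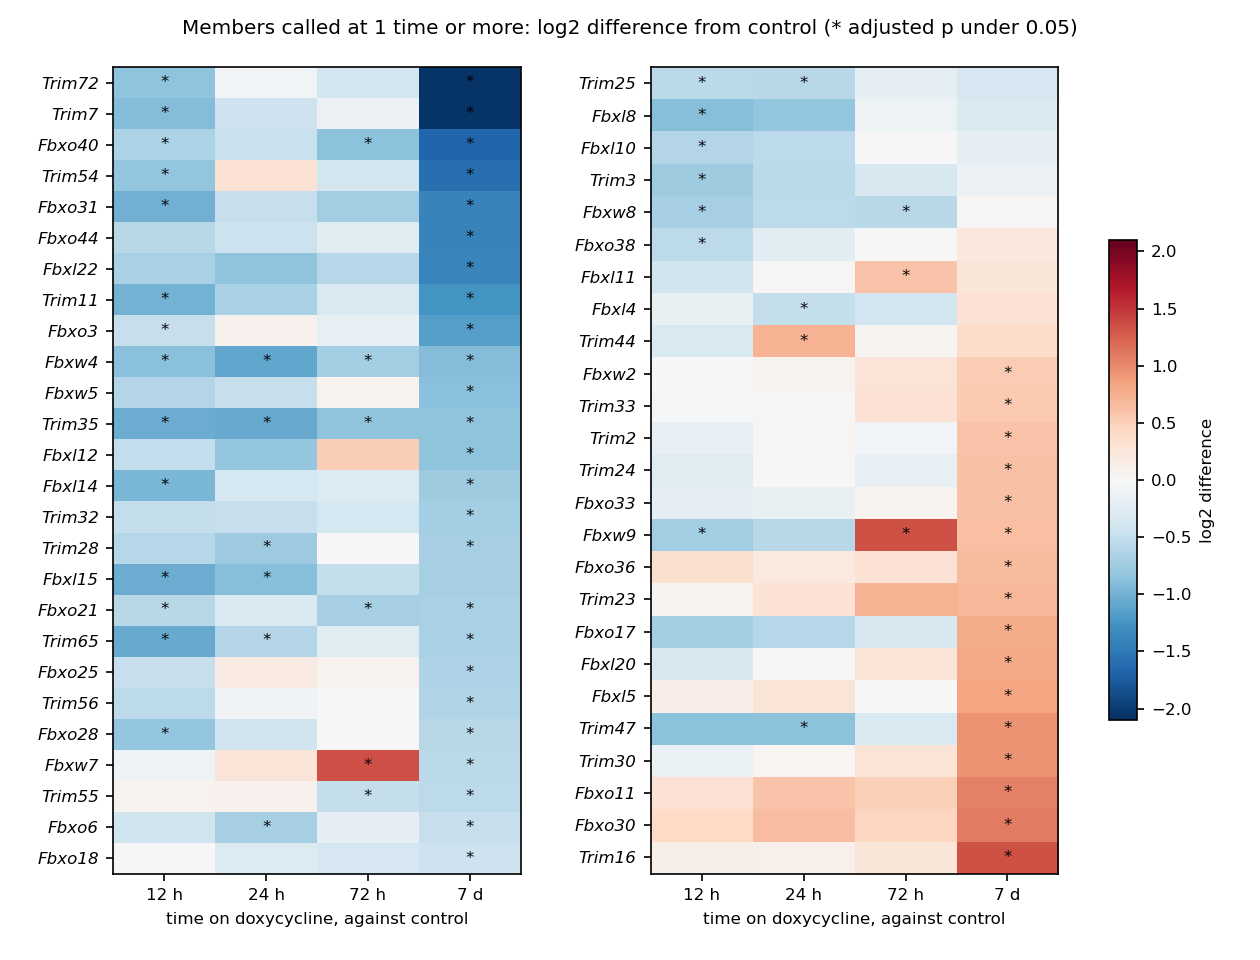
Log2 difference from control at 12 hours, 24 hours, 72 hours and 7 days (columns) for the 51 genes called at least once (rows, ordered by their difference at 7 days from lowest at top left to highest at bottom right); stars mark an adjusted p under 0.05. The darkest blue cells are Trim72 and Trim7 at 7 days (-2.07 and -2.06), and Fbxw7 and Fbxw9 stand out in red at 72 hours (1.36 and 1.34).

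Trim54 and Trim72 had the highest levels of all 114 genes. Trim54 (MuRF3, Entrez Gene 58522, chr5:31419085-31440003, plus strand, mm9) binds microtubules and the sarcomere, and it averaged 162.5 RPKM over the 15 mice. Trim72 (MG53, Entrez Gene 434246, chr7:135147503-135154907, plus strand, mm9) patches torn plasma membrane in striated muscle, and it averaged 140.1 RPKM. Behind them came Fbxo40 at 49.7, Fbxo3 at 32.9, Fbxw5 at 32.9 and Fbxo31 at 29.1 RPKM. At the other end 18 of the 114 genes averaged under 0.1 RPKM, 15 of them Trim genes.

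Trim54 measured 189, 198 and 236 RPKM in control, 169, 85.1 and 109 after 12 hours, 223, 285 and 258 after 24 hours, 192, 147 and 138 after 72 hours and 84.6, 70.3 and 54.1 after 7 days. All 7 day mice and all 12 hour mice lay below every control, while the 24 hour values overlapped control on the high side. The difference was -1.58 ± 0.23 (adjusted p 2.7e-05) at 7 days, which held in every setting tried, and -0.83 ± 0.23 (adjusted p 0.0329) at 12 hours, a call lost with either scaling and with the GC correction. Trim72 measured 174, 184 and 234 RPKM in control, 125, 92.3 and 111 after 12 hours, 195, 243 and 139 after 24 hours, 209, 129 and 123 after 72 hours and 54.97, 53.2 and 33.3 after 7 days. It was lowest at 7 days with no overlap, and it too was below control at 12 hours. Its difference of -2.07 ± 0.25 (adjusted p 3.61e-06) at 7 days was the largest fall of the 78 genes and held in every setting. At 12 hours it was -0.84 ± 0.25 (adjusted p 0.0394), and with the column code as a term that value turned to 0.08.

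The other ligases of the muscle TRIM list are Trim55 and Trim32. Trim55 (MuRF2, Entrez Gene 381485, chr3:19544460-19591599, plus strand, mm9) links titin to microtubules and to nuclear signalling. It measured 29.7, 31.3 and 28.98 RPKM in control, 29.1, 36.7 and 29.4 after 12 hours, 32.1, 33.2 and 30.8 after 24 hours, 21.8, 20.1 and 21 after 72 hours and 19.1, 18.95 and 22.98 after 7 days. All 6 late values lay below all 9 earlier ones. The fall was -0.50 ± 0.15 (adjusted p 0.0397) at 72 hours, lost with either scaling, with the GC correction and without any 1 of 6 mice, and -0.54 ± 0.15 (adjusted p 0.00554) at 7 days. Trim32, whose mutation causes a limb girdle muscular dystrophy, went from 6.4, 7.63 and 7.34 RPKM in control to 3.74, 3.33 and 4.91 after 7 days, a difference of -0.71 ± 0.23 (adjusted p 0.0156) that lost its call without A3259 (-0.67) or A3283 (-0.62) or with the column code (-0.05). So 4 of 4 muscle TRIM genes fell at 7 days, with a median of -1.15 where that of all genes was -0.03, and 2, 0 and 1 fell at 12, 24 and 72 hours. Of all genes 28.2% fell at 7 days, and 12.7%, 10.6% and 5.22% fell at 12, 24 and 72 hours. Within the list the falls at 7 days ran from -0.54 to -2.07.

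Markers of other cell types differed at 7 days. The 6 cardiomyocyte markers all fell, with a median of -2.50, and their summed level went from 37400 to 39900 RPKM in control to 10300 to 11000 RPKM. All 5 fibroblast markers rose, with a median of 3.01 (469 to 524 RPKM summed in control, 1910 to 2520 at 7 days), and so did all 5 macrophage markers in the table, with a median of 2.76 (18.8 to 24.2 RPKM, then 182 to 255). Neutrophil markers went from at most 1.77 to 15.8 to 23.9 RPKM and lymphocyte markers from at most 0.92 to 7.81 to 13.8 RPKM, while 4 of 5 endothelial markers fell. Both tested erythroid markers fell, with a median of -2.41 (808 to 1260 RPKM summed in control, 37.3 to 296 at 7 days), of 3 smooth muscle markers 2 rose and 1 fell (87 to 126 RPKM, then 131 to 190), and of 3 atrial markers 1 fell (28.6 to 46.5 RPKM at 7 days). None of these markers was at 0 in all mice. In whole ventricle, fewer cells of a type and less RNA per cell cannot be told apart, and the part of these shifts in the 7 day differences was not tested.

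Several F-box genes are known from muscle. Fbxo40 (Entrez Gene 207215, chr16:36963546-36990553, minus strand, mm9) is expressed in striated muscle and marks the insulin receptor substrate Irs1 for destruction. It measured 78.1, 68.1 and 86.4 RPKM in control, 40.9, 61.96 and 44.3 after 12 hours, 60.2, 60 and 47.98 after 24 hours, 43.4, 41.01 and 41.1 after 72 hours and 23.7, 18.8 and 29.2 after 7 days. Every mouse with the Celf1 transgene lay below every control, and the 7 day mice lay below all others. The difference was -0.67 ± 0.19 (adjusted p 0.0348) at 12 hours, -0.46 at 24 hours without a call, -0.87 ± 0.19 (adjusted p 0.00866) at 72 hours and -1.67 ± 0.19 (adjusted p 1.88e-06) at 7 days. Only the last held in every setting. The 12 hour call was lost with either scaling, and the 72 hour call with the column code or without the control mouse A3280 (-0.79).

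Fbxl22 (Entrez Gene 74165, chr9:66356266-66362400, minus strand, mm9) is a heart-enriched F-box protein of the Z-disc. It measured 34.3, 39.7 and 41.7 RPKM in control, 29.3, 18.5 and 23.7 after 12 hours, 16.5, 28.6 and 19.4 after 24 hours, 50.7, 14.1 and 21.4 after 72 hours and 20.3, 14.04 and 9.85 after 7 days. The groups at 12 hours, 24 hours and 7 days did not overlap control, but the 72 hour group split into 1 mouse above all controls (A3278) and 2 below. Only the 7 day difference was called, -1.38 ± 0.35 (adjusted p 0.00294), and it became 0.14 with the column code as a term. Its exons overlap those of Herc1 on the other strand, and whether reads were counted by strand is not given in the sources used here.

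Fbxo21 (SMART) and Fbxo30 (MUSA1) rise in skeletal muscle that wastes, and Fbxo25 is the closest relative of Fbxo32. Fbxo21 measured 12.4, 12.8 and 13.3 RPKM in control, 8.32, 9.51 and 7.01 after 12 hours, 10.2, 9.99 and 9.95 after 24 hours, 8.63, 6.87 and 7.25 after 72 hours and 7.94, 8.94 and 6.12 after 7 days. All 12 mice with the transgene were below every control, and the fall was called at 12 hours (-0.58), 72 hours (-0.69) and 7 days (-0.69 ± 0.17, adjusted p 0.00229). The 12 hour call did not pass with both scalings and the GC correction. That at 72 hours passed with them but was not kept whichever mouse was left out. Fbxo25 went from 7.28, 8.18 and 8.96 RPKM in control through 9.55, 7.8 and 8.38 after 72 hours to 4.3, 4.79 and 5.4 after 7 days, a fall of -0.65 ± 0.16 (adjusted p 0.00271). Fbxo30 moved the other way, from 6.67, 5.66 and 5.1 RPKM in control through 11.1, 8.8 and 9.02 after 24 hours to 10.5, 12.8 and 18.3 after 7 days. Its rise of 1.10 ± 0.25 (adjusted p 0.00131) shrank to 0.22 with the GC correction and 0.20 with the column code, and neither was called. Of the 4 genes on this list 3 therefore fell and 1 rose at 7 days, with a median of -0.67 beside -0.03 for all genes. Of all genes 28.2% fell and 26.7% rose at that time. Of the atrophy ligases left out above, Trim63 (MuRF1) rose at 24 hours (1.12 ± 0.19, adjusted p 0.00564) and at 72 hours (0.60, adjusted p 0.0433) and fell at 7 days (-0.51, adjusted p 0.0285), and Fbxo32 was called at no time, with -0.17 at 7 days.

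**Figure D3:**
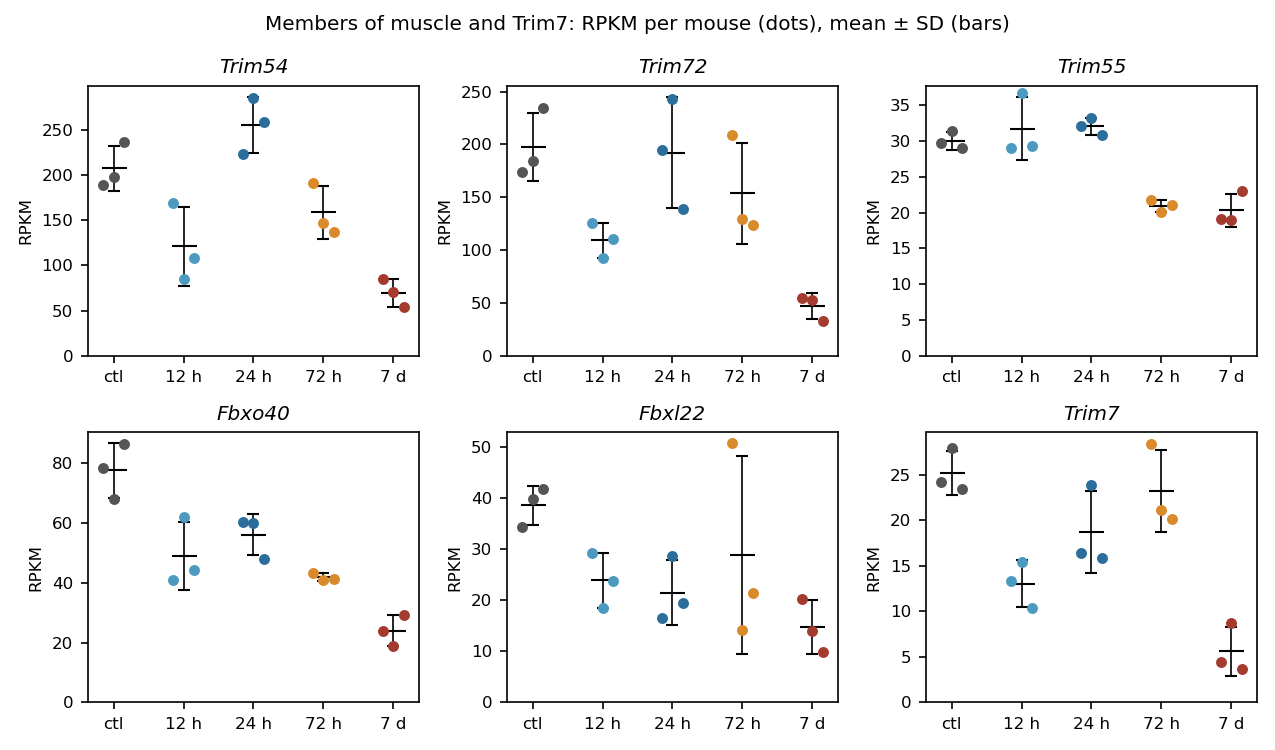
RPKM of Trim54, Trim72, Trim55, Fbxo40, Fbxl22 and Trim7 in each mouse (dots) with the mean and SD of each group of 3 (bars), for control (ctl) and 4 times on doxycycline (x axis; y axes start at 0). The 7 day group has the lowest mean in each panel, and the 72 hour dots of Fbxl22 run from 14.1 to 50.7.

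Because these muscle genes fell at 7 days, their promoters are shown. The sequences are RefSeq's for GRCm38.p6, from upstream to shortly downstream of the annotated start, 5' to 3' on the gene's strand, and their coordinates are in that build. Both strands were searched for the E-box CAGCTG, a binding site of muscle bHLH factors, for the MEF2 motif and for the CArG box of serum response factor, and capitals mark the matches. RefSeq's table held 87 promoters for 59 of the 78 tested genes.

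Trim54 (chr5:31116362-31116661, plus strand): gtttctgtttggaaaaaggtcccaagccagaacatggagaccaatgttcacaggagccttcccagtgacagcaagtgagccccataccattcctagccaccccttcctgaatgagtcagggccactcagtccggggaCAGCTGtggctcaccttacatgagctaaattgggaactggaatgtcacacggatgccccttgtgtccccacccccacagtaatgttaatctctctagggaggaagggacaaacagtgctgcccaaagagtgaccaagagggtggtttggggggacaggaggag
Trim72 (chr7:128004128-128004427, plus strand): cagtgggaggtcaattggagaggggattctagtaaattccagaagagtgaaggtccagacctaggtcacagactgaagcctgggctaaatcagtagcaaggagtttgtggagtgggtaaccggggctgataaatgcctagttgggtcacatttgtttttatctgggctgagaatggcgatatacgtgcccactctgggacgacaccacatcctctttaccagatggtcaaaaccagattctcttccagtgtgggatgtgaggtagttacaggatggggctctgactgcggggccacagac
Fbxo40, downstream start (chr16:36979087-36979386, minus strand): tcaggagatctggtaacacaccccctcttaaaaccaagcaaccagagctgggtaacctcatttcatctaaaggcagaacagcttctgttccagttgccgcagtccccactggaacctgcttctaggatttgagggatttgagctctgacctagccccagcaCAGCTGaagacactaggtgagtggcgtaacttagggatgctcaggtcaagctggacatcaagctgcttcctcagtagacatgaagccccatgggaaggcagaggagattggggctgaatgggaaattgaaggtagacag
Fbxo40, upstream start (chr16:36990418-36990717, minus strand): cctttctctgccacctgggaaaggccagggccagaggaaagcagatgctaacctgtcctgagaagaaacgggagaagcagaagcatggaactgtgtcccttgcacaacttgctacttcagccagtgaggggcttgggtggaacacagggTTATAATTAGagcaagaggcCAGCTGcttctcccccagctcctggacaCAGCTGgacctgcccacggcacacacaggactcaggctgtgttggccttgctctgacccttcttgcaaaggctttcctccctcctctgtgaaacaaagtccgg
Fbxl22 (chr9:66514544-66514843, minus strand): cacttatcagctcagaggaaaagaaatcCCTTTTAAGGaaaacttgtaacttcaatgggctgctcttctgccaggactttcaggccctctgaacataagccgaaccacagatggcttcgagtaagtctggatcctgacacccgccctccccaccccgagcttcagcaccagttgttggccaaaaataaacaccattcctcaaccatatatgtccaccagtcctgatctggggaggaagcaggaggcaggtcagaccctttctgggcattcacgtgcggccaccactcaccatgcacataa

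The Trim54 window held 1 E-box and the Trim72 window held none of these motifs. The upstream Fbxo40 start had 2 E-boxes and 1 MEF2 match, the downstream start had 1 E-box, and Fbxl22 had 1 CArG box. Over 32851 mouse promoters of the same length an E-box occurred in 16.3%, a MEF2 match in 3.2% and a CArG box in 1.6%. Among the 87 promoters of these genes the shares were 26.4%, 2.3% and 1.1%. The GC box GGGCGG was in 59.8% of them and in 35.7% of all. These are letter matches, and no binding was measured.

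Trim7 (Entrez Gene 94089, chr11:48639642-48665711, plus strand, mm9) binds glycogenin, the protein that primes glycogen. It measured 24.3, 27.9 and 23.4 RPKM in control, 13.3, 15.5 and 10.4 after 12 hours, 16.5, 23.9 and 15.9 after 24 hours, 28.4, 21.1 and 20.2 after 72 hours and 4.48, 8.7 and 3.62 after 7 days. It was low at 12 hours, overlapped control at 24 and 72 hours, and was lowest at 7 days. The fall at 7 days, -2.06 ± 0.25 (adjusted p 3.06e-06), held in every setting, whereas that at 12 hours, -0.91 ± 0.25 (adjusted p 0.0294), did not hold under either scaling. Trim11, which helps to clear misfolded proteins, fell from 10.2, 11.1 and 13.7 RPKM in control to 5.37, 4.83 and 5.74 after 12 hours and 5.48, 5.11 and 2.69 after 7 days, by 0.998 and 1.26, with adjusted p 0.0228 and 0.00055. Its 72 hour values of 14.5, 7.34 and 7.02 RPKM again placed A3278 above all controls and the other 2 mice below.

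Trim35 was below control at all 4 times. It measured 37.8, 37.8 and 44.5 RPKM in control, 20.1, 20.01 and 16.4 after 12 hours, 22.1, 22.8 and 12.9 after 24 hours, 28.9, 18.7 and 18.8 after 72 hours and 22.2, 21.04 and 21.7 after 7 days. No mouse with the transgene reached the lowest control. The fall was -1.05 ± 0.21 (adjusted p 0.00895) at 12 hours, -1.05 ± 0.21 (adjusted p 0.00891) at 24 hours, -0.85 ± 0.21 (adjusted p 0.0164) at 72 hours and -0.85 ± 0.21 (adjusted p 0.00265) at 7 days. The 12 hour call was the only one of the 21 to hold with both scalings and the GC correction (-0.70, -0.71 and -0.67). It was lost with the column code (-0.49). The calls at 12, 24 and 72 hours were lost without control mouse A3280 (-0.97, -0.98 and -0.77), that at 24 hours also without A3262 (-0.80) and that at 72 hours without A3281 (-0.75) or A3264 (-0.75). Trim65, a ligase of the RNA sensor Mda5, went from 2.66, 3.56 and 4.11 RPKM in control to 1.24, 0.86 and 1.23 after 12 hours, 2.28, 2.42 and 1.13 after 24 hours and 1.88, 1.62 and 1.74 after 7 days. Its 12 hour fall of -1.07 ± 0.20 (adjusted p 0.00643) was the largest of that comparison and the only one kept when each mouse was left out in turn, but it lost its call with the GC correction and with the column code.

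Trim16 and Trim47 were the Trim genes that gained most from 72 hours to 7 days. Trim16 (Entrez Gene 94092, chr11:62633733-62690964, plus strand, mm9) joins galectins on damaged endosomes and lysosomes and lacks a RING domain. It measured 2.7, 2.28 and 3.85 RPKM in control, 3.38, 3.63 and 2.71 after 12 hours, 3.68, 3.79 and 2.30 after 24 hours, 4.02, 3.31 and 3.65 after 72 hours and 9.29, 10.1 and 7.43 after 7 days. It overlapped control up to 72 hours, and all 7 day mice stood above all others. The rise of 1.34 ± 0.20 (adjusted p 2.52e-05) was the largest of the 78 genes at 7 days and held in every setting; its exons overlap those of Fbxw10 on the same strand, and Fbxw10 averaged 0.13 RPKM.

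Trim47 (Entrez Gene 217333, chr11:115967066-115988524, minus strand, mm9) measured 14.2, 14.9 and 18.2 RPKM in control, 9.38, 7.36 and 7.95 after 12 hours, 10.3, 11.3 and 4.50 after 24 hours, 18.9, 9.72 and 10.3 after 72 hours and 36.9, 34.7 and 23.1 after 7 days. It was below control in all 6 mice of the first day and above control in all 3 mice at 7 days. The difference was -0.86 ± 0.29 (adjusted p 0.0499) at 24 hours, which did not pass with either scaling or without any 1 of 10 mice, and 0.94 ± 0.29 (adjusted p 0.0108) at 7 days, which held in every setting. Trim47 and Trim65 share exonic sequence on the same strand, so their counts may be split between them. At 7 days Trim65 fell (-0.68 ± 0.20, adjusted p 0.00856). That call did not pass with both scalings and the GC correction, and it was lost with the column code. Whether shared reads bear on these opposite differences was not tested.

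Trim2 and Trim23 rose late as well. Trim2, a ligase of neurofilament light chain, measured 1.77, 1.33 and 1.36 RPKM in control, 1.43, 1.41 and 1.32 after 72 hours and 2.9, 3.08 and 2.31 after 7 days, with no overlap at 7 days and a difference of 0.60 ± 0.17 (adjusted p 0.00722) that was lost with the column code (0.73). Trim23, which also carries a GTPase domain, measured 5.61, 5.2 and 4.83 RPKM in control and 8.21, 11.7 and 7.67 after 7 days. Its difference of 0.69 ± 0.25 (adjusted p 0.0247) turned to -0.26 with the GC correction.

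Trim44, which has no RING domain, was the only gene of the 78 to rise at 24 hours. It measured 15.3, 17.6 and 17.04 RPKM in control, 12.6, 16.98 and 10.5 after 12 hours, 22.6, 39.1 and 25.3 after 24 hours, 18.6, 18.3 and 15.6 after 72 hours and 20.5, 24.2 and 21.7 after 7 days. All 24 hour values exceeded all controls, with A3277 highest. The rise of 0.73 ± 0.20 (adjusted p 0.027) passed with both scalings and the GC correction but not without A3277 (0.50), A3262 (0.80) or any 1 of the controls.

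The nuclear TRIM genes code for co-regulators of transcription. Trim28 (KAP1), the corepressor of KRAB zinc finger proteins, went from 30.2, 35.4 and 33.7 RPKM in control to 21.6, 22.2 and 14.1 after 24 hours and 21.7, 21.7 and 16.7 after 7 days. It fell at 24 hours (-0.77 ± 0.22, adjusted p 0.0302) and at 7 days (-0.70), and both calls were lost with the GC correction. Trim24 (TIF1 alpha) rose from 7.28, 6.66 and 7.63 RPKM to 10.03, 13.8 and 10.9 after 7 days (0.61 ± 0.19, adjusted p 0.0124), a call lost without A3283 (0.49), and Trim33 (TIF1 gamma), a partner of Smad proteins, rose by 0.55. The Trim33 call was lost with quantile scaling (0.46), the GC correction (0.21) and the column code (0.03), and without A3259, A3280, A3283 or A3269. Of the 3 tested genes 2 thus rose and 1 fell at 7 days (26.7% and 28.2% of all genes), and Trim66 was below the filter.

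The list of antiviral TRIM genes had 10 in the table, and 7 of them were tested. Trim30, an interferon-induced brake on NF-kappaB signalling, measured 2.14, 1.78 and 1.71 RPKM in control, 2.09, 3.26 and 2.14 after 72 hours and 5.45, 3.93 and 4.33 after 7 days. Its 7 day values did not overlap control, and the rise was 0.95 ± 0.20 (adjusted p 0.000772). Trim30 lies near the related genes Trim12 and Trim34 on chromosome 7. How reads that fit more than 1 gene were counted is not given, so its count is uncertain. Trim25, which activates the RNA sensor RIG-I, fell at 12 hours (-0.57) and 24 hours (-0.59 ± 0.15, adjusted p 0.0209). Both calls were lost with either scaling and with the GC correction, and the later one also without A3259, A3280 or A3262. Trim56 fell at 7 days (-0.64, adjusted p 0.0224), a call lost without A3250 (-0.56) or A3269 (-0.40). Trim12, Trim21, Trim26 and Trim34 were called at no time against control. Over the list 1 rose and 1 fell at 7 days (26.7% and 28.2% of all genes), with a median of -0.17 beside -0.03 for all genes. Of 17 tested interferon response genes, which are not TRIM genes, 0, 0, 1 and 1 rose and 0, 0, 0 and 2 fell at the 4 times. Of all genes 0.524%, 5.38%, 6.39% and 26.7% rose and 12.7%, 10.6%, 5.22% and 28.2% fell. Among the interferon response genes called were Tap1, up at 72 hours (1.56 ± 0.31, adjusted p 0.00438), and at 7 days Ifit2 (0.67) and Irf1 (-0.69).

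The largest single moves at 72 hours were in the Fbxw family. Fbxw7 (Entrez Gene 50754, chr3:84619190-84783120, plus strand, mm9) is the receptor that brings cyclin E, Myc, Jun and Notch to the SCF ligase. It measured 12.2, 11.8 and 9.93 RPKM in control, 9.84, 12.2 and 9.37 after 12 hours, 13.5, 12.9 and 15.01 after 24 hours, 28.1, 38.6 and 25.8 after 72 hours and 7.04, 9.68 and 5.57 after 7 days. All 3 mice at 72 hours, A3278 included, were above every other mouse of the study, and all 3 at 7 days were below every control. The rise at 72 hours was 1.36 ± 0.20 (adjusted p 0.000385) and held in every setting. The fall at 7 days, -0.57 ± 0.20 (adjusted p 0.0224), was lost with the column code (-0.58, adjusted p 0.202) and without A3250 (-0.52), A3259 (-0.54), A3345 (-0.55) or A3269 (-0.40). Its exons overlap those of Dear1 on the other strand.

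Fbxw9 (Entrez Gene 68628, chr8:87583954-87591023, plus strand, mm9) was also highest at 72 hours, at lower levels. It measured 2.56, 2.64 and 3.81 RPKM in control, 1.71, 0.96 and 1.54 after 12 hours, 2.38, 1.56 and 1.15 after 24 hours, 11.1, 8.76 and 7.48 after 72 hours and 5.27, 5.80 and 4.45 after 7 days. All mice of the first day were below all controls, and all mice from 72 hours on were above them. The difference was -0.74 ± 0.21 (adjusted p 0.0343) at 12 hours, 1.34 ± 0.21 (adjusted p 0.000777) at 72 hours and 0.63 ± 0.21 (adjusted p 0.0177) at 7 days. The 72 hour rise held in every setting; the 12 hour fall was lost with either scaling and the 7 day rise without A3250 (0.55), A3259 (0.57) or A3283 (0.56). A230103J11Rik lies over its exons on the other strand.

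Fbxw4 (dactylin) was below control at all 4 times, as Trim35 was. It measured 12.8, 15.9 and 16.9 RPKM in control, 8.17, 8.12 and 7.07 after 12 hours, 7.13, 6.99 and 5.70 after 24 hours, 10.9, 7.48 and 8.33 after 72 hours and 9.49, 5.87 and 7.81 after 7 days. No mouse with the transgene reached the lowest control. The fall was -0.88 ± 0.19 (adjusted p 0.0127) at 12 hours, -1.09 ± 0.19 (adjusted p 0.00748) at 24 hours, -0.71 ± 0.19 (adjusted p 0.0232) at 72 hours and -0.91 ± 0.19 (adjusted p 0.000742) at 7 days. The first 3 calls were lost without the control mouse A3280 (-0.80, -1.01 and -0.64), those at 12 and 72 hours also without A3259 (-0.84 and -0.68), that at 12 hours with either scaling, the GC correction or the column code and without A3276 (-0.82), that at 72 hours without A3281 (-0.61) or A3264 (-0.68), with the GC correction (-0.48) or the column code (-0.43), and the 7 day call with the column code (-0.49). Fbxw5, which also serves Cul4 ligases, was the most abundant gene of the family. It measured 37.9, 39.6 and 46.2 RPKM in control, 62.5, 35.8 and 36.7 after 72 hours and 24.1, 25.3 and 17.04 after 7 days, and fell at 7 days by 0.88 (adjusted p 0.00242). Fbxw8, the partner of Cul7, fell at 12 hours (-0.70) and 72 hours (-0.58, adjusted p 0.0489) and stood at 0.03 at 7 days. The 12 hour call was lost with either scaling and the GC correction, and the 72 hour call was kept in 8 of 25 settings and lost without any 1 of 11 mice. Of 8 tested Fbxw genes 0, 0, 2 and 2 rose and 3, 1, 2 and 3 fell at the 4 times, beside 0.524%, 5.38%, 6.39% and 26.7% of all genes that rose and 12.7%, 10.6%, 5.22% and 28.2% that fell. The further rise at 7 days was Fbxw2 (0.53), while Fbxw11 (beta-TrCP2) and Fbxw17 were not called against control.

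**Figure D4:**
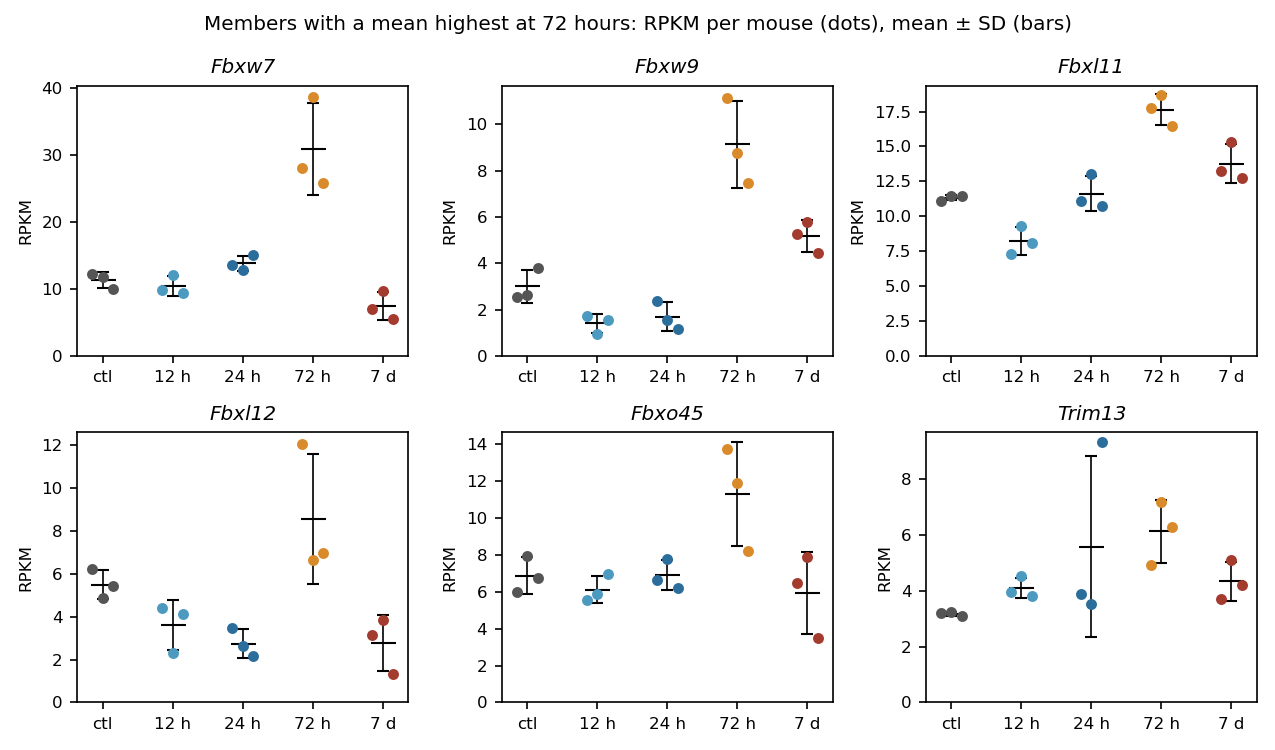
RPKM of Fbxw7, Fbxw9, Fbxl11, Fbxl12, Fbxo45 and Trim13, whose group means are highest at 72 hours, in each mouse (dots) with mean and SD of 3 (bars), by group (x axis; y axes start at 0). Fbxw7, Fbxw9 and Fbxl11 have 72 hour dots above all controls and passed the test; for Fbxl12, Fbxo45 and Trim13 the 72 hour dots are also above control but the adjusted p was not under 0.05.

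Fbxl11 (now Kdm2a) removes methyl groups from histone H3. It measured 11.1, 11.4 and 11.4 RPKM in control, 7.28, 9.28 and 8.08 after 12 hours, 11.1, 13.04 and 10.7 after 24 hours, 17.8, 18.7 and 16.5 after 72 hours and 13.2, 15.3 and 12.7 after 7 days. The 72 hour mice were the highest of the study, and the rise was 0.59 ± 0.15 (adjusted p 0.0192). It passed with both scalings and the GC correction and was lost with the column code (0.61, adjusted p 0.103) and without A3281 (0.55), A3250 (0.58), A3259 (0.60) or A3280 (0.60). Fbxl12 measured 6.21, 4.87 and 5.43 RPKM in control, 3.46, 2.64 and 2.15 after 24 hours, 12.1, 6.66 and 6.97 after 72 hours and 3.13, 3.85 and 1.35 after 7 days. Its 72 hour difference of 0.52 ± 0.28 (adjusted p 0.228) was not called, and the fall at 7 days, -0.84 ± 0.28 (adjusted p 0.0156), was lost without A3250 (-0.77) or A3269 (-0.53). The 7 day call also did not pass with both scalings and the GC correction, and with the column code its direction reversed.

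Fbxl5, an iron-sensing protein that marks Irp2 for destruction, measured 10.6, 11.01 and 8.85 RPKM in control, 12.1, 10.6 and 10.9 after 12 hours, 15.3, 12.2 and 10.4 after 24 hours, 7.8, 13.6 and 9.37 after 72 hours and 16.6, 18.2 and 21.3 after 7 days. The 7 day mice were above all others. The rise was 0.82 ± 0.20 (adjusted p 0.00206), which shrank to 0.27 with the GC correction and 0.25 with the column code, both without a call. Fbxl20 rose from 6.08, 5.99 and 5.21 RPKM to 9.48, 11.3 and 11.6 after 7 days, 0.80 ± 0.18 (adjusted p 0.00122), and held in every setting. Early falls in this family were those of Fbxl15 at 12 and 24 hours (-1.04 and -0.89), Fbxl14, a ligase of Snail (-0.97 at 12 hours and -0.75 at 7 days), Fbxl8 and Fbxl10 (now Kdm2b) at 12 hours (-0.89 and -0.61) and Fbxl4 at 24 hours (-0.50). All of the calls at 12 and 24 hours of these 5 genes were lost with either scaling. Of 14 tested Fbxl genes 0, 0, 1 and 2 rose and 4, 2, 0 and 3 fell at the 4 times. The shares of all genes were 0.524%, 5.38%, 6.39% and 26.7% for rises and 12.7%, 10.6%, 5.22% and 28.2% for falls.

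Of the F-box proteins that bind the sugar chains of glycoproteins 3 of 5 were tested. Fbxo44 measured 11.5, 11.1 and 12.5 RPKM in control, 10.3, 7.74 and 5.14 after 12 hours, 9.59, 10.1 and 5.71 after 24 hours, 13.4, 7.89 and 8.43 after 72 hours and 4.09, 3.39 and 4.01 after 7 days. The 7 day mice were below all others, and the fall of -1.40 ± 0.24 (adjusted p 0.000131) held in every setting. Fbxo17 measured 1.15, 2.25 and 2.56 RPKM in control, 1.15, 0.83 and 0.805 after 24 hours, 2.25, 1.15 and 0.77 after 72 hours and 4.44, 4.85 and 3.01 after 7 days. It ran opposite to Fbxo44, with all 7 day mice above all others and a rise of 0.79 ± 0.25 (adjusted p 0.0139) that was lost without A3250 (0.56) or A3283 (0.68). Fbxo6 fell at 24 hours (-0.69 ± 0.18, adjusted p 0.0208) and at 7 days (-0.49). Neither call passed with both scalings and the GC correction, and with the column code the direction at 7 days reversed.

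Fbxo31, which marks cyclin D1 for destruction after DNA damage, measured 39.97, 43.2 and 52.5 RPKM in control, 26.4, 16.2 and 23.9 after 12 hours, 35.3, 44.1 and 20.5 after 24 hours, 37.1, 21.5 and 23.3 after 72 hours and 21.9, 21.8 and 9.17 after 7 days. Values at 12 hours, 72 hours and 7 days were below all controls and those at 24 hours overlapped them. The fall was -1.02 ± 0.32 (adjusted p 0.0456) at 12 hours, lost with either scaling, and -1.40 ± 0.32 (adjusted p 0.00144) at 7 days, which was -0.45 without a call when the column code was a term. Fbxo3, which targets another F-box protein, Fbxl2, measured 39.2, 43.5 and 37.7 RPKM in control, 25.7, 30.2 and 28.98 after 12 hours, 36.6, 46.9 and 45.4 after 24 hours, 33.9, 38.5 and 34.2 after 72 hours and 16.4, 19.7 and 16.5 after 7 days. It overlapped control at 24 and 72 hours, and the 7 day mice were below all others. The difference of -1.15 ± 0.16 (adjusted p 1.05e-05) held in every setting. Fbxo11, which targets Bcl6, rose from 7.42, 6.35 and 5.73 RPKM in control through 11.6, 7.84 and 11.8 after 24 hours to 12.2, 17.6 and 14.6 after 7 days, 1.07 ± 0.22 (adjusted p 0.000695); with the GC correction the rise was 0.53 and with the column code 0.37 without a call. Fbxo33 rose from 1.97, 1.75 and 1.86 RPKM to 4.23, 3.40 and 2.63 after 7 days (0.61 ± 0.18, adjusted p 0.00919), a call lost without A3345 (0.48). Fbxo36, the only tested gene with a control mean under 1 RPKM, rose too (0.67 ± 0.25, adjusted p 0.0292), a call lost with quantile scaling, first columns or the column code and without A3280, A3345 or A3283. Of all 24 tested Fbxo genes 0, 0, 0 and 5 rose and 6, 1, 2 and 9 fell at the 4 times. These are again to be read against 0.524%, 5.38%, 6.39% and 26.7% of all genes that rose. The shares of all genes that fell were 12.7%, 10.6%, 5.22% and 28.2%.

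**Figure D5:**
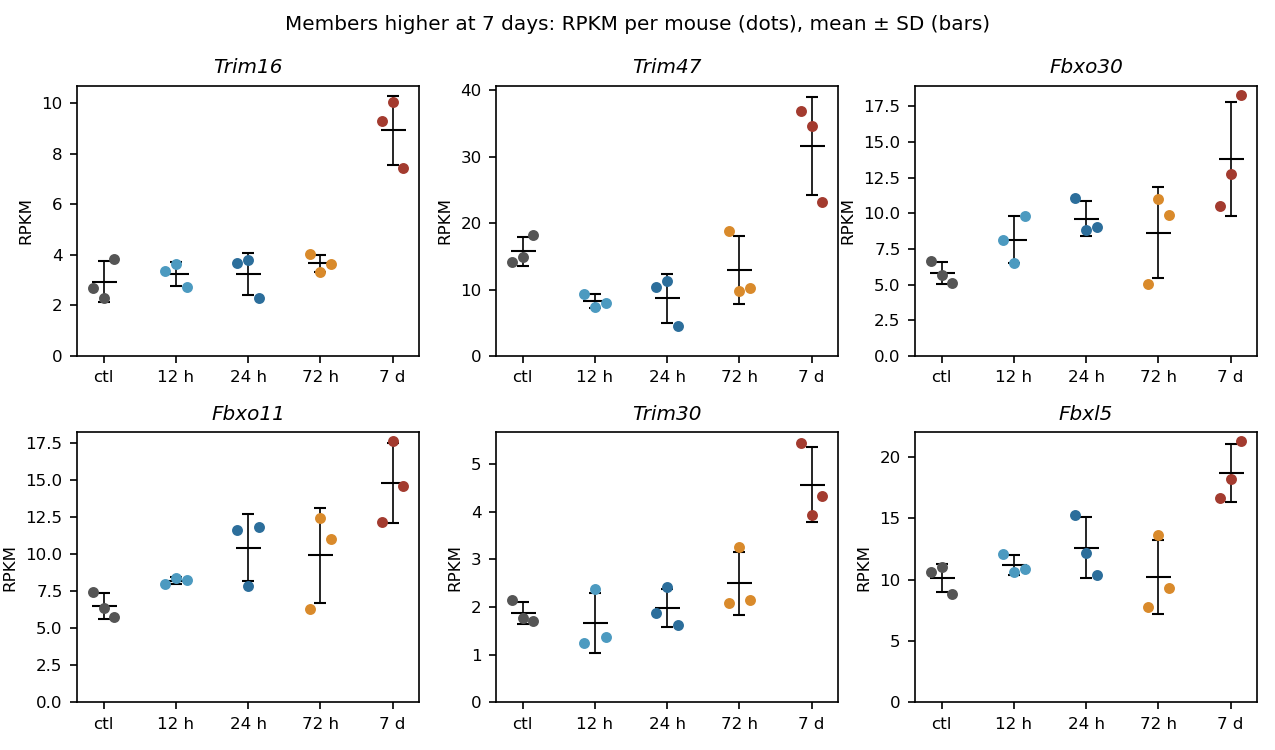
RPKM of Trim16, Trim47, Fbxo30, Fbxo11, Trim30 and Fbxl5, which rose at 7 days, in each mouse (dots) with mean and SD of 3 (bars), by group (x axis; y axes start at 0). All 7 day dots of Trim16, Trim47, Trim30 and Fbxl5 lie above the dots of every other group, while those of Fbxo30 and Fbxo11 overlap the earlier times.

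The fall at 12 hours was broad and moved with base composition. All 3 values lay below all 3 controls for 44 of the 78 genes, 56.4%, and for 43.0% of all genes. Across the 78 genes the 12 hour difference and the GC content of the transcript had a Spearman correlation of -0.67, and across 10592 genes one of -0.57; the genes share the same libraries, so this is a description. At 24 hours, 72 hours and 7 days the correlation over the 78 genes was -0.61, -0.45 and -0.40. The 21 genes that fell at 12 hours had a median GC content of 53.7%, the other 57 had 50.3%, and all tested genes had 50.6%. At 7 days the 16 genes that rose had a median of 46.3% and the 25 that fell 52.9%. With a GC correction in each library 1 gene was called at 12 hours in place of 21, and with median-of-ratios or quantile scaling 2 were. Without the control mouse A3280, 1 gene was called, without A3259 or A3276 2 were, without A3258 4, without A3250 8 and without A3278 30. The part of GC content in the early falls was otherwise not tested.

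At 24 hours and 72 hours the counts also leaned on single mice. Without control A3280 the 10 calls at 24 hours became 0 (16 at an unadjusted p under 0.05) and the 9 at 72 hours became 2. Without A3278, the 72 hour mouse with the controls' column code, 22 genes were called at 24 hours and 18 at 72 hours, 7 higher and 11 lower. At 24 hours the count was 1 without A3262, 2 without A3259, 6 without any 1 of A3250, A3258, A3276, A3264 and A3283, and 16 without A3269. At 72 hours it was 3 without A3281 and 4 without A3259 or A3264. The direction at 24 hours depended on scaling, since the 1 rise and 9 falls became 4 and 4 with either scaling. At 7 days 24 of the 41 calls were kept whichever mouse was left out, and 9 were kept in every setting tried: Fbxo3, Fbxo40, Fbxo44, Trim7, Trim54 and Trim72 among the falls and Fbxl20, Trim16 and Trim47 among the rises. With the column code as a term these 9 and Fbxo17, Fbxo33 and Fbxw9 kept their 7 day call, and the other 29 lost it. Fbxl22, Fbxo11, Fbxo21, Fbxo25, Fbxo31, Fbxw4, Fbxw5, Trim2, Trim11, Trim30, Trim35 and Trim55 lost the 7 day call in 1 setting only, that with the column code as a term. Exons of Fbxw4 (Dpcd), Fbxl12 (Ubl5), Fbxl5 (Bst1), Fbxl15 (Cuedc2), Fbxo11 (Msh6), Fbxo3 (4931422A03Rik), Trim35 (1700001G11Rik), Trim54 (Gm15469) and Trim7 (Gm12184) overlap those of the gene in brackets on the other strand, and their reads cannot be told apart if strand was not used.

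Between 72 hours and 7 days 31 of the 78 genes differed, 39.7% against 44.9% of all genes, with 14 higher (22.6% of all genes) and 17 lower (22.3%) at 7 days. Fbxw7 fell from its peak (-1.93 ± 0.20, adjusted p 7.44e-07), and Trim7 (-1.94 ± 0.25, adjusted p 8.67e-06) and Trim72 (-1.68 ± 0.25, adjusted p 4.8e-05) also dropped late. Fbxl12 followed with -1.36 ± 0.28 (adjusted p 0.000719) and Trim54 with -1.18 ± 0.23 (adjusted p 0.000585). Trim47 (1.25 ± 0.29, adjusted p 0.00196), Fbxo17 (1.12 ± 0.25, adjusted p 0.00161) and Trim16 (1.08 ± 0.20, adjusted p 0.000286) gained most. Fbxl4, whose loss in people causes a mitochondrial DNA disease, went from 2.43, 2.77 and 2.4 RPKM at 72 hours to 4.79, 4.99 and 4.37 after 7 days (0.69 ± 0.17, adjusted p 0.00262) and was called against control only at 24 hours. Of the muscle TRIM genes Trim54 and Trim72, not called against control at 72 hours, were lower at 7 days, and Trim55 (-0.05) and Trim32 were not called.

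Celf1 binds GU-rich elements, and the consensus 11-mer of these elements was searched on the transcript's strand in the 3' UTR of the longest coding transcript (GENCODE vM1, mm9). It occurred in 5 of 77 tested genes with a 3' UTR (6.5%) and in 380 of 10487 tested genes with one (3.6%), with median UTR lengths of 1063 and 1065 bases. The 5 sites are shown with 9 bases on each side, 5' to 3' on the gene's strand as DNA, and capitals mark the 11-mer that was searched.

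Fbxl14 (chr6:119432061-119432089, plus strand): tttccttttTGTTTGTTTGTttgagatgc
Fbxl5 (chr5:44147861-44147889, minus strand): gggttttttTGTTTGTTTGTttgtttgtt
Fbxo40 (chr16:36965995-36966023, minus strand): aaggatattTGTTTGTTTGTttatttgtt
Fbxo7 (chr10:85513832-85513860, plus strand): ttgttttgtTGTTTGTTTGTttttttcta
Trim21 (chr7:109706994-109707022, minus strand): attgttcgtTGTTTGTTTGTtttccctcc

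Fbxl5 held 4 matches and the other genes 1 each. The shorter TGTTTGT occurred in 31 of the 77 genes (40.3%) and in 27.2% of all genes. The 5 genes did not move together: Fbxo40 fell at 12 hours, 72 hours and 7 days, Fbxl14 fell at 12 hours and 7 days, Fbxl5 rose at 7 days, and Fbxo7 and Trim21 were called at no time. At 24 hours, when the mean of the Celf1 row was highest, none of the 5 was called, and their differences were -0.37 for Fbxl14, 0.28 for Fbxl5, -0.46 for Fbxo40, -0.29 for Fbxo7 and 0.18 for Trim21. A match does not show that Celf1 bound there.

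Genes for the partners of these proteins were counted in the same way. Their calls are those of the main fit, and no other scaling, GC correction or column code term is given for them. Of 15 tested genes for the SCF core and the cullins 0, 5, 1 and 6 rose and 1, 0, 0 and 3 fell at the 4 times, with a median of 0.59 at 7 days beside -0.03 for all genes. Of all genes 0.524%, 5.38%, 6.39% and 26.7% rose and 12.7%, 10.6%, 5.22% and 28.2% fell at the 4 times. Cul4b rose by 1.62 ± 0.23 (adjusted p 1.49e-05), Cul3 by 1.39 ± 0.29 (adjusted p 0.000773) and Sugt1, a chaperone partner of Skp1, by 1.27 ± 0.22 (adjusted p 0.000149) at 7 days. Of 13 tested genes for E2 enzymes 2, 3, 3 and 7 rose and 0, 0, 1 and 1 fell at the 4 times. Their median was 0.71 at 7 days, and the same shares of all genes stand beside them. The list also named E1 genes, but none was tested. The E2 enzymes Ube2d2 and Ube2d3 rose by 2.13 ± 0.25 (adjusted p 1.96e-06) and 2.24 ± 0.35 (adjusted p 3.93e-05), while their close relative Ube2d1 fell, with -1.15 ± 0.16 (adjusted p 1.77e-05). Of 18 genes that attach or remove NEDD8 or exchange F-box proteins on cullins 0, 4, 3 and 4 rose and 1, 0, 1 and 6 fell at the 4 times. The counts at 7 days were near the shares of all genes. At 24 and 72 hours the 4 and 3 rises of 18 were above the 5.38% and 6.39% of all genes. The muscle-enriched exchange factor Cand2 measured 40.8, 49.6 and 55.02 RPKM in control and 12.03, 12.1 and 12.7 after 7 days and fell (-1.89 ± 0.22, adjusted p 1.95e-06), as did Dcun1d2, which promotes the attachment of NEDD8 to cullins (-2.80 ± 0.26, adjusted p 1.99e-07). Cops2, a subunit of the signalosome that removes NEDD8, rose by 1.67 ± 0.28 (adjusted p 8.77e-05). In A3278, with the controls' column code, Cul3 measured 17.5 and Ube2d3 67.2 RPKM after 72 hours. Controls had 18.2 to 24.4 and 58.97 to 84.75 RPKM. A3281 and A3264 of that group had 53.6 and 43.3, and 197.9 and 192.4 RPKM. For Cul4b, Sugt1, Ube2d2 and Cops2 A3278 lay between controls and these mice. For Cand2 it lay within control, and for Dcun1d2 and Ube2d1 below all controls. The part of the code in the 7 day differences was not tested.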

How the data were processed

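The deposited table holds RPKM per gene in 20 columns for 15 mice, and 5 mice have a repeat column. Per the submitters' processing notes the authors used TopHat, Bowtie and mm9, while the versions, how reads were counted and with what strand setting were not given in the sources used here. RPKM hold no counts, so no count test was run, and depth was estimated from the smallest RPKM steps of 90 single-exon olfactory receptor genes (60 of 60 simulated libraries came within 5%). The counts behind single values are unknown.

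Repeat columns were averaged per mouse, and log2(deposited RPKM + 1) was fitted with limma 3.58.1 in R 4.3.3, with a mean-variance trend, 5 groups of 3 mice and 10 residual degrees of freedom, for the 10868 of 16042 genes with a mean of at least 1 RPKM. P-values were adjusted over all of these by Benjamini and Hochberg with a threshold of 0.05. The procedure was tested on simulated data. Alternatives were a pseudocount of 0.1, no filter or a mean of at least 5 RPKM, median-of-ratios and quantile scaling, robust empirical Bayes, the compared groups alone, only the first column per mouse, a term for the column code, a lowess GC correction (span 0.3, GENCODE vM1 transcripts, mm9) and leaving out each mouse. With the code as a term columns entered singly and 24 hours had no value. Every comparison with control then rested on A3278, the only other mouse with the controls' code.

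Genes named with values were called, without overlap between the compared groups, among the 10 largest per direction and comparison, or were among the 6 most abundant, or belonged to the lists of muscle TRIM and muscle Fbxo genes, with up to 3 genes of each partner list per comparison. Fbxl10, Fbxo7, Fbxw2, Fbxw11, Trim12, Trim13, Trim21, Trim26, Trim33, Trim34 and Trim56 fall outside this rule and were named after their values were seen. The genes and lists were chosen with earlier results of these data known. Older symbols of the table were kept. The row named Fbxo39 carries the identifier of Xaf1 in RefSeq and is not described. Some items are not reported here.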

Additional observations from a re-analysis of the deposited data

Results flagged for a closer look

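Against 72 hours, 11 genes were higher and 16 lower at 7 days, with no overlap of values. Each passed the direct limma test (adjusted p under 0.05), so that its effects at 7 days and 72 hours differed. These counts do not mark an excess over all genes. By the test alone, the 78 tested genes passed less often than all genes in both directions. The share of all genes that passed without overlap is not given. The 10 genes with the largest difference in each direction are listed. The effect at 7 days was the higher one for Trim47 (by 1.25 on the log2 scale), Fbxo17 (1.12), Trim16 (1.08), Fbxl5 (0.84), Trim24 (0.78), Fbxl4 (0.69), Trim30 (0.68), Trim2 (0.65), Fbxw17 (0.61) and Fbxo33 (0.54). It was the lower one for Trim7 (-1.94), Fbxw7 (-1.93), Trim72 (-1.68), Fbxl12 (-1.36), Trim54 (-1.18), Fbxo44 (-1.14), Fbxo3 (-0.98), Fbxw5 (-0.96), Trim11 (-0.94) and Fbxo45 (-0.85). Trim24, Trim2 and Fbxo33 were close to control at 72 hours and rose only at 7 days among the comparisons with control. Fbxo45, which acts with the ligase Phr1 in neurons, and Fbxw17 passed against 72 hours but at no time against control.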

How the results depend on the processing

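The 21 genes called at 12 hours became 11 without a filter, 2 with median-of-ratios scaling, 2 with quantile scaling, 34 with the compared groups alone, 10 with the first column of each mouse, 1 with the GC correction and 0 with the column code as a term (4 at an unadjusted p under 0.05), and 1 (without A3280) to 30 (without A3278) when 1 mouse was left out. The 10 at 24 hours became 5 without a filter, 5 with first columns and 0 (without A3280) to 22 (without A3278) with 1 mouse left out. Their split of 1 higher and 9 lower became 4 and 4 with either scaling and 5 and 3 with the GC correction. The 9 at 72 hours became 2 with the column code and 2 to 18 with 1 mouse left out, and the split of 3 and 6 became 4 and 5 with median-of-ratios scaling and 8 and 4 with the GC correction. The 41 at 7 days became 12 with the column code and 32 to 43 with 1 mouse left out. The 31 between 7 days and 72 hours became 20 at a mean of at least 5 RPKM and 25 to 32 with 1 mouse left out, and their split of 14 and 17 became 12 and 24 or 10 and 20 with the scalings. The 55 with any difference stayed within 47 to 56. With the column code the direction reversed at 12 hours for Trim72 (0.076), Fbxl8 (0.41), Fbxl15 (0.064), Fbxo31 (0.12) and Trim11 (0.10), and at 7 days for Fbxl14 (0.27), Trim28 (0.040), Fbxl12 (0.074), Trim56 (0.13), Fbxo6 (0.12) and Fbxl22 (0.14). Each of these values is linked to control through A3278 alone. With the GC correction Trim23 reversed at 7 days (-0.26). Fewer genes are tested at the stricter filter; the cause of the other changes was not tested. No paired analysis was possible because the mice carry single numbers shared by no groups. Low RPKM limits 36 genes that were not tested.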

Other observations

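Among the 36 genes under a mean of 1 RPKM, a fit without the filter called several, and those named here were chosen after their values were seen. Trim69, a RING ligase of the centrosome, measured 1.53, 1.17 and 1.09 RPKM at 72 hours and 0 to 0.42 RPKM in all other mice. Its difference was 1.06 ± 0.10, adjusted p 5.95e-05, at 72 hours and it dropped again by 7 days (-1.14 ± 0.10, adjusted p 2.51e-06); like Fbxw7 it had its highest values at 72 hours. Trim59 measured 0.03, 0.14 and 0.12 RPKM in control and 1.41, 2.25 and 2.05 at 7 days, with no overlap, and rose by 1.39 ± 0.23, adjusted p 0.000315. Fbxl2 (0.54 ± 0.18, adjusted p 0.0269), Fbxo5 or Emi1, the inhibitor of the anaphase-promoting complex (0.44 ± 0.14, adjusted p 0.0263), Fbxw10 (0.34 ± 0.09, adjusted p 0.00708) and Fbxo47 (0.32 ± 0.08, adjusted p 0.00751) also rose at 7 days. Fbxo16 fell at 7 days (-0.53 ± 0.20, adjusted p 0.0498) and Fbxl7 at 12 hours (-0.61 ± 0.15, adjusted p 0.0382). Exons of Fbxw10 overlap those of Trim16 on the same strand, and Trim16 rose by 1.34 at 7 days.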
